A study of Homo sapiens with 3 samples.

Results

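The genes examined here encode 10 central components of the unfolded protein response, namely ERN1, XBP1, EIF2AK3, ATF4, DDIT3, ATF6, HSPA5, HERPUD1, DNAJB9 and TRIB3, out of 20162 protein-coding genes. They were taken by name and not by any measured value, although earlier results of these data were known when they were chosen. Each was matched to 1 gene of GENCODE 44 on hg19. Distinct peak intervals over a gene or within 20 kb of it were assigned to that gene, which gave 29 of 24096 H3K27ac intervals and 21 of 18585 H3K4me3 intervals. The data came from chromatin immunoprecipitation sequencing (ChIP-seq) of H2087, an established lung adenocarcinoma cell line. Both libraries were prepared from untreated cells in serum-containing RPMI medium, with an antibody against H3K27ac (ab4729) or H3K4me3 (ab8580), so no agent that disturbs protein folding was applied. H3K4me3 marks promoters in use, and H3K27ac marks active promoters and enhancers. Each mark had 1 library (n = 1), so no value below has a replicate error and no test was made.

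The unfolded protein response restores protein folding in the endoplasmic reticulum (ER) when unfolded proteins accumulate there. It is started by the membrane sensors IRE1, PERK and ATF6, which are encoded by ERN1, EIF2AK3 and ATF6. IRE1 splices the XBP1 mRNA, PERK slows translation while favouring that of ATF4, and ATF6 is cut by proteases so that its cytosolic part enters the nucleus. The resulting transcription factors raise chaperones such as HSPA5 (BiP), factors of ER-associated degradation such as HERPUD1, and stress effectors such as DDIT3 (CHOP) and TRIB3. Cells that secrete much protein, such as the surfactant-producing cells of the lung, rely on it.

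The response acts through short DNA elements, and those found at the genes are shown first. Searches covered both strands of the 300 bases upstream of the canonical transcript start in the hg19 reference. Only exact letters were matched. An element farther upstream, or cut by the edge of this window, was missed, so no match does not show that a gene lacks the element. The ER stress response element was written as CCAAT, then any 9 bases, then CCACG. It was found upstream of HSPA5 and XBP1 among the 10 genes, and in 0.109% of the 20162 promoters of the same length. Near copies were not counted, such as ccaatgccggcgtgccact upstream of DDIT3 and ccaatgggcggcagccaca upstream of HERPUD1. Its second form, ATTGG, then any base, then CCACG, was found upstream of HERPUD1 alone among the 10, and in 0.0794% of all promoters. The element TGACGTGG, bound by XBP1 and ATF6, was present upstream of none of the 10 and in 0.769% of all promoters. The amino acid response element bound by ATF4 and its partners, TGATGNAAN, was present upstream of HERPUD1 and in 2.64% of all promoters. Its narrower core TGATGCAA, which overlaps it, was present upstream of HERPUD1 and in 0.704%. The sequences below are stretches directly before the outermost annotated starts, free of annotated exons. They are chr9:128003662-128003861 (minus strand) for HSPA5, chr22:29196586-29196670 (minus strand) for XBP1 and chr16:56965854-56966053 (plus strand) for HERPUD1, each read 5′ to 3′ with the matched elements in capitals.
HSPA5: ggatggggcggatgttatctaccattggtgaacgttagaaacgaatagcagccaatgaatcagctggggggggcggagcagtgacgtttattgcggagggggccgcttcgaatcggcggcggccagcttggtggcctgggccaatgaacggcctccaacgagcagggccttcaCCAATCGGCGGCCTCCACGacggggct
XBP1: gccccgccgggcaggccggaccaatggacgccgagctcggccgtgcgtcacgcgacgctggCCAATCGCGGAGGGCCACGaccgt
HERPUD1: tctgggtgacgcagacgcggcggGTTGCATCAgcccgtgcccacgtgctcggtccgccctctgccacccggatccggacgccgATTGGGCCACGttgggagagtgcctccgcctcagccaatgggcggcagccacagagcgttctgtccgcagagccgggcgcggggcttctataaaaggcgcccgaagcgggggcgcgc

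At HSPA5 and HERPUD1 the elements lay beside the H3K4me3 intervals and not inside them. In HSPA5 the element was 134 bp from the nearest H3K4me3 interval, and in HERPUD1 the second-form element was 130 bp and the amino acid response element 70 bp from it. The matched element of XBP1 was 83855 bp from any H3K4me3 interval. Within the intervals assigned to the genes, an amino acid response element was found once, in an H3K27ac interval in an intron of DDIT3 (chr12:57913420-57913703, 818 bp downstream of the canonical start), against 2.84% of all H3K27ac intervals. It is shown on the minus strand, the strand of the gene, with the element in capitals.
DDIT3: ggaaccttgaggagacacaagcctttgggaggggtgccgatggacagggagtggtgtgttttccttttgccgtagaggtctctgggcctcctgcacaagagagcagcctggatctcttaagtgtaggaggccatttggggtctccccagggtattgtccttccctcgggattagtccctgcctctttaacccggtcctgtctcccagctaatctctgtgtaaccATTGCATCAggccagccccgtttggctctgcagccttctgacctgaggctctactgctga
TGACGTGG occurred once, in an H3K27ac interval of TRIB3 centred 7.93 kb upstream of the canonical start, and in 0.548% of all H3K27ac intervals. The 21 H3K4me3 intervals of the genes held none of the elements, which are also rare over all H3K4me3 intervals. There the amino acid response element was found in 2.73%, its core in 0.597% and TGACGTGG in 0.549%. The ER stress response element was found in 0.00538% and its second form in 0.0108%.

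Of the 10 genes, 6 had an H3K4me3 interval within 1 kb of the outermost annotated 5′ end, against 38.2% of all protein-coding genes. H3K27ac was found there at 4 of the 10, against 23.6%. Overlapping intervals of both marks were found at DDIT3 and HERPUD1, 2 of the 10, against 15.5% of all genes. Several of the genes have an outer end far from the start of the canonical transcript, the representative transcript of the annotation. The distance was 64054 bp in EIF2AK3, 17925 bp in TRIB3, 1223 bp in DDIT3, 867 bp in ATF4 and 675 bp in ERN1, and at most 39 bp in the other genes. At canonical starts, H3K4me3 was found at 7 genes (41.3% of all genes), H3K27ac at 5 (25.2%) and overlapping marks at 3 (17.0%). The gene gained for H3K4me3 was ATF4, and EIF2AK3 was gained for H3K27ac and for the overlap. XBP1 and ATF6 had neither mark by either definition.

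**Figure D1:**
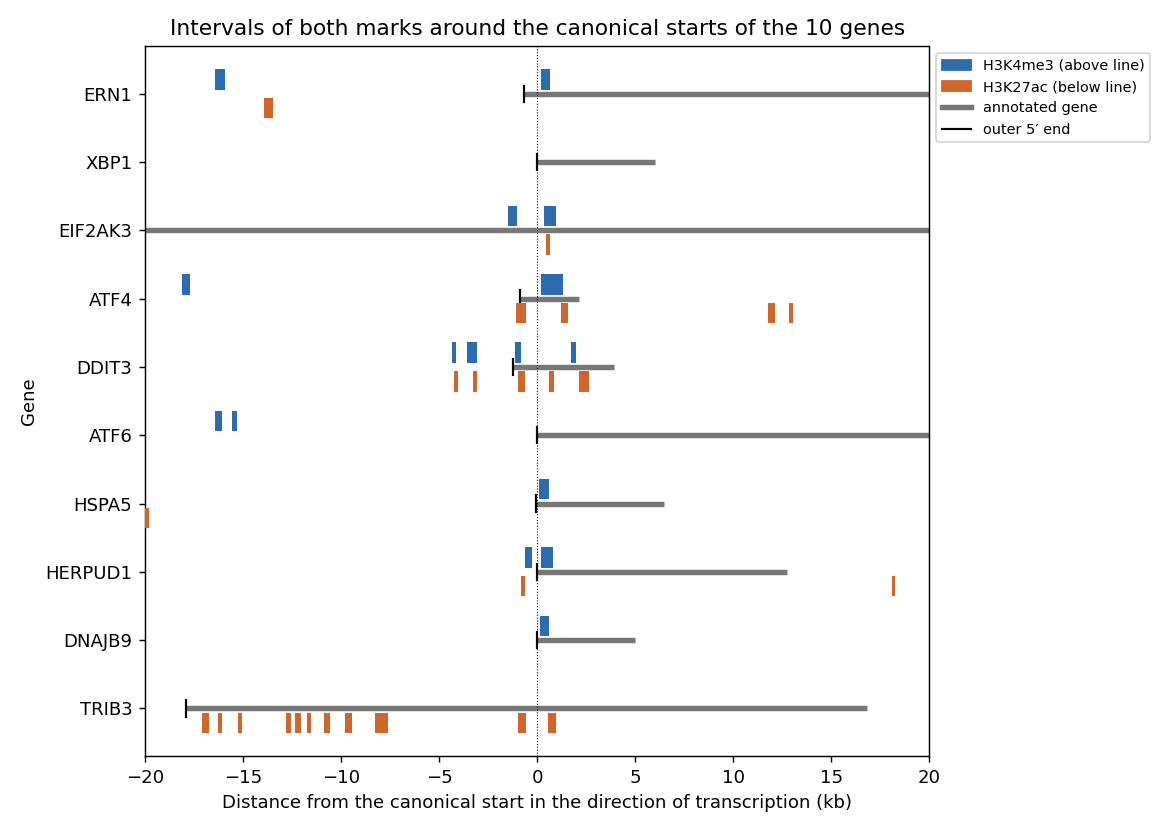
Position of H3K4me3 (blue, above each line) and H3K27ac (orange, below) intervals within 20 kb of the canonical start of each gene, in kb and in the direction of transcription. Grey lines show the annotated gene and black ticks its outer 5′ end. H3K4me3 lies just downstream of the start in 6 genes, XBP1 is empty, and TRIB3 carries H3K27ac alone. Intervals more than 20 kb from the canonical start are not drawn.

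An interval of some kind lay over the gene or within 20 kb of 8 genes for H3K27ac (54.2% of all protein-coding genes) and of 9 for H3K4me3 (61.6%). The median number per gene over all protein-coding genes was 1 for each mark. In the deposited lists each interval carries a −log10 q, the significance that the peak caller gave it, which ranks intervals within a list and is not comparable between the lists. The H3K27ac intervals of the 10 genes had a median −log10 q of 2.82 (1.39 to 5.98), against 2.65 over the list, and a median width of 269 bp against 284 bp. The H3K4me3 intervals had a median −log10 q of 2.93 (1.72 to 8.24), against 2.97, and a median width of 431 bp against 305 bp. Of the H3K27ac intervals 7 (24.1%) shared at least 1 bp with H3K4me3, against 24.0% of the list. Of the H3K4me3 intervals 7 (33.3%) overlapped H3K27ac, against 31.1%. In these measures the intervals of the 10 genes were near the values of the whole lists, apart from the larger width of H3K4me3. TRIB3 alone contributed 13 of the 29 H3K27ac intervals, and the overlap share rests on it, since without TRIB3 6 of 16 H3K27ac intervals overlapped H3K4me3.

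Measured to outer 5′ ends, another gene had the nearest protein-coding start for 10 of the 29 H3K27ac and 9 of the 21 H3K4me3 intervals. The interval farthest from its gene inside the limit of 20 kb was an H3K27ac interval 19.7 kb from HSPA5 (−log10 q 2.16), 449 bp from the start of GAPVD1. Just outside the limit, an H3K4me3 interval (5.41) and an H3K27ac interval (2.82) were 20.5 kb from HSPA5, again nearest to GAPVD1.

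The IRE1 branch was marked at the sensor and not at its target. ERN1, the kinase and RNase that splices XBP1 (chromosome 17, 62116440 to 62208179, minus strand), had an H3K4me3 interval at 62206862 to 62207309 in an intron, with its centre 419 bp downstream of the canonical start. It had a −log10 q of 3.76 (above 65.6% of the H3K4me3 list). No H3K27ac interval was found at the start. An H3K27ac interval (3.55) and an H3K4me3 interval (2.92) lay 13.7 and 16.2 kb upstream of the canonical start without overlapping, with ERN1 as the nearest protein-coding start.

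XBP1, the transcription factor made from the spliced mRNA (chromosome 22, 29190543 to 29196585, minus strand), was the gene of the 10 with no interval of either mark over it or within 20 kb. The nearest H3K4me3 interval lay 83.9 kb upstream of the gene, 904 bp from the start of ZNRF3, with a −log10 q of 1.55. The nearest H3K27ac interval lay 229930 bp upstream, also with 1.55. Few intervals were called in this region, 3 of H3K27ac and 4 of H3K4me3 in the 1 Mb around the start, against medians of 12 and 10 over all protein-coding genes. The part of this regional scarcity was not tested, and absence of an interval does not show absence of the mark.

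In the PERK branch the sensor and both transcription factors carried both marks within 1 kb of their canonical starts, at low to middle ranks there. EIF2AK3, which encodes PERK (chromosome 2, 88856259 to 88991036, minus strand), had an H3K4me3 interval at 88926043 to 88926615 over coding sequence of canonical exon 1, with a −log10 q of 3.68 (above 62.8% of the list). An H3K27ac interval of 185 bp lay wholly inside it, with a −log10 q of 1.39 (above 1.66%). A second H3K4me3 interval (2.12) was centred 1.26 kb upstream of the canonical start. The strongest H3K27ac interval of the gene (5.12, above 91.6%) was in an intron 25.4 kb downstream of the canonical start and overlapped no H3K4me3. At the outer 5′ end the H3K4me3 interval (2.93) lay 407 bp outside EIF2AK3 and 252 bp from the start of RPIA, so that the gene counted as marked there through an interval nearer to its neighbour.

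ATF4, the transcription factor that PERK signalling raises (chromosome 22, 39915700 to 39918688, plus strand), had an H3K4me3 interval of 1123 bp over exons 2 and 3, with 5′ untranslated and coding sequence. It was the widest of the 21 H3K4me3 intervals and shared the lowest −log10 q among them, 1.72 (above 14.7% of the list). An H3K27ac interval at 39915483 to 39915996 (2.82, above 52.9%) covered the outer 5′ end, and another at 39917804 to 39918127 (1.55) was in the coding sequence of exon 3 and shared 83 bp with the H3K4me3 interval. The H3K4me3 interval lay 1064 bp from the outer end and 197 bp from the canonical start, so this gene counted as marked by H3K4me3 only at the canonical start. The strongest H3K4me3 interval within 20 kb, with 8.24 (above 96.9%), was 160 bp from the canonical start of MIEF1. A pair of H3K27ac intervals 11.9 and 12.9 kb downstream of the canonical start was nearest to RPS19BP1.

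DDIT3, which encodes CHOP (chromosome 12, 57910371 to 57915520, minus strand), had 5 H3K27ac and 4 H3K4me3 intervals over it or within 20 kb, all of low rank. Their −log10 q ran from 1.39 to 2.22 for H3K27ac and from 1.72 to 2.63 for H3K4me3, and none exceeded 39.1% of its list. Near the outer 5′ end, an H3K27ac interval at 57914935 to 57915267 (2.22) and an H3K4me3 interval at 57915141 to 57915428 (2.21) shared 127 bp. The 2 overlapping pairs further upstream were nearer to the canonical start of MBD6, at 736 to 1844 bp, than to that of DDIT3. The 3 intervals further inside the gene also lay within an overlapping protein-coding gene model without a symbol (ENSG00000285133), and the pair at the outer end also lay within MBD6. The 1 Mb around DDIT3 held 80 H3K27ac and 68 H3K4me3 intervals, more than around 98.2% and 98.8% of protein-coding genes. The part of this regional density in the intervals of DDIT3 was not tested.

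ATF6, the sensor that itself becomes a transcription factor (chromosome 1, 161736088 to 161947364, plus strand), had no interval of either mark within 1 kb of its start. The H3K4me3 intervals within 20 kb, with −log10 q of 3.16 and 6.25, lay upstream and were 152 and 1002 bp from the start of DUSP12. The H3K27ac interval (3.09, above 65.3% of the list) was in an intron 143 kb downstream of the canonical start. The region was not poor in intervals, with 17 of H3K27ac and 13 of H3K4me3 in the 1 Mb around the start.

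The target genes of the folding and degradation machinery had the highest H3K4me3 values at their starts, and H3K27ac was found at HERPUD1 but not at HSPA5 or DNAJB9. HSPA5 encodes BiP, the main ER chaperone, which also holds the sensors inactive (chromosome 9, 127997132 to 128003661, minus strand). It had an H3K4me3 interval at 128003036 to 128003536 over exons 1 and 2, with a −log10 q of 4.60 (above 78.4% of the list), whose edge was 86 bp downstream of the canonical start. The H3K27ac interval nearest to this start was 19.8 kb away.

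HERPUD1, a membrane protein of ER-associated degradation (chromosome 16, 56966054 to 56978776, plus strand), had H3K4me3 on both sides of its start. The downstream interval at 56966252 to 56966888, over coding sequence of exon 1, had 2 summits and a −log10 q of 7.20, above 94.7% of the list. The upstream interval at 56965429 to 56965807 (4.04) shared 31 bp with an H3K27ac interval at 56965218 to 56965459 (3.74, above 79.7%). The gap between the H3K4me3 intervals, from 247 bp upstream to 198 bp downstream, contained the start and both elements shown above. A further H3K27ac interval (1.66) lay downstream of the gene, 11.5 kb from the start of CETP.

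DNAJB9, an ER co-chaperone of BiP (chromosome 7, 108210311 to 108215294, plus strand), had a single interval, of H3K4me3, at 108210474 to 108210925 over exon 1 in the 5′ untranslated region. Its −log10 q was 6.30, above 91.5% of the list. No H3K27ac interval was called in the 1 Mb around the start, and the nearest to the canonical start was 553 kb away. H3K4me3 was also thin in this region, with 4 intervals in the 1 Mb.

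**Figure D2:**
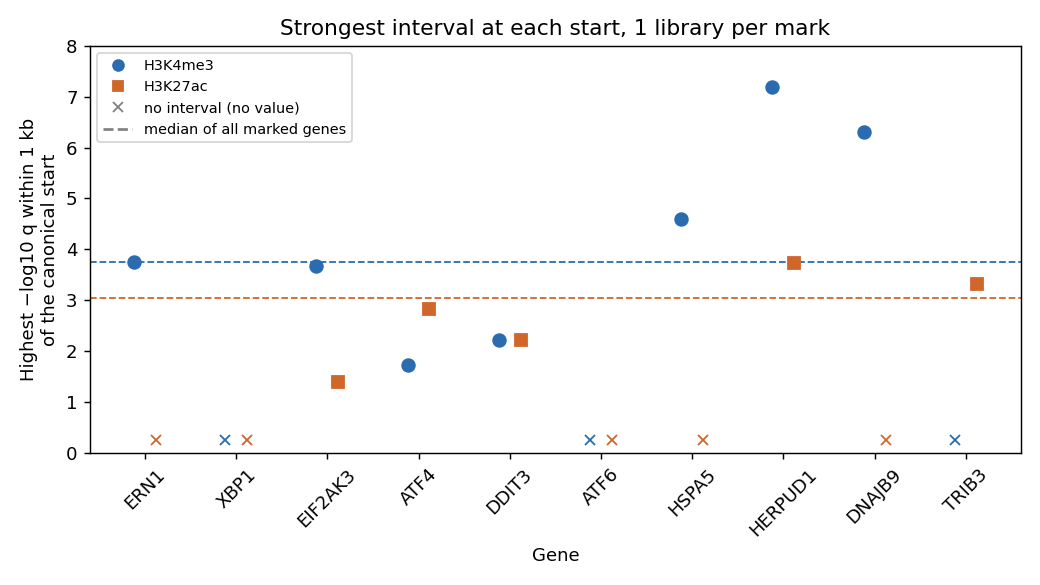
Highest −log10 q of H3K4me3 (blue circles) and H3K27ac (orange squares) within 1 kb of the canonical start of each gene, with crosses where there was no interval. Dashed lines are the medians over all protein-coding genes with the mark at the canonical start, 3.76 for H3K4me3 and 3.05 for H3K27ac. HERPUD1, DNAJB9 and HSPA5 lie above the H3K4me3 median, and HERPUD1 and TRIB3 above that of H3K27ac.

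Among the 8331 genes with H3K4me3 at the canonical start, the strongest interval had a median −log10 q of 3.76 (interquartile range 2.83 to 5.41). HERPUD1 and DNAJB9 were above this range, HSPA5, ERN1 and EIF2AK3 were within it, and DDIT3 and ATF4 were below it. For H3K27ac, the median over 5085 genes was 3.05 (2.16 to 4.28). HERPUD1, TRIB3, ATF4 and DDIT3 were within this range, and EIF2AK3 was below it. In 6 of the 7 genes with H3K4me3, the centre of the strongest interval was downstream of the canonical start, by 336 bp in HSPA5, 381 in DNAJB9, 419 in ERN1, 516 in HERPUD1, 653 in EIF2AK3 and 758 in ATF4. DDIT3 was the exception, at 0.987 kb upstream of the canonical start and 236 bp downstream of the outer end.

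TRIB3 encodes a pseudokinase that CHOP and ATF4 induce and that restrains AKT signalling (chromosome 20, 343479 to 378203, plus strand). It showed the reverse of the chaperone genes, with H3K27ac along the gene and no H3K4me3 over it. The 11 H3K27ac intervals over TRIB3 had −log10 q from 1.40 to 5.98, and none overlapped H3K4me3. With 13 intervals over the gene or within 20 kb, TRIB3 exceeded 98.5% of protein-coding genes. The strongest, at 344305 to 344674 (5.98, above 95.6% of the list), was 826 bp from the outer 5′ end. A run of 9 intervals ran from there to 353820, in introns of transcripts other than the canonical one. Another pair, with 3.32 and 3.09, stood on either side of the canonical start at 555 and 558 bp. The nearest H3K4me3 interval was 28.4 kb from the canonical start, and the 4 H3K4me3 intervals within 20 kb of the gene were nearest to NRSN2 or RBCK1.

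**Figure D3:**
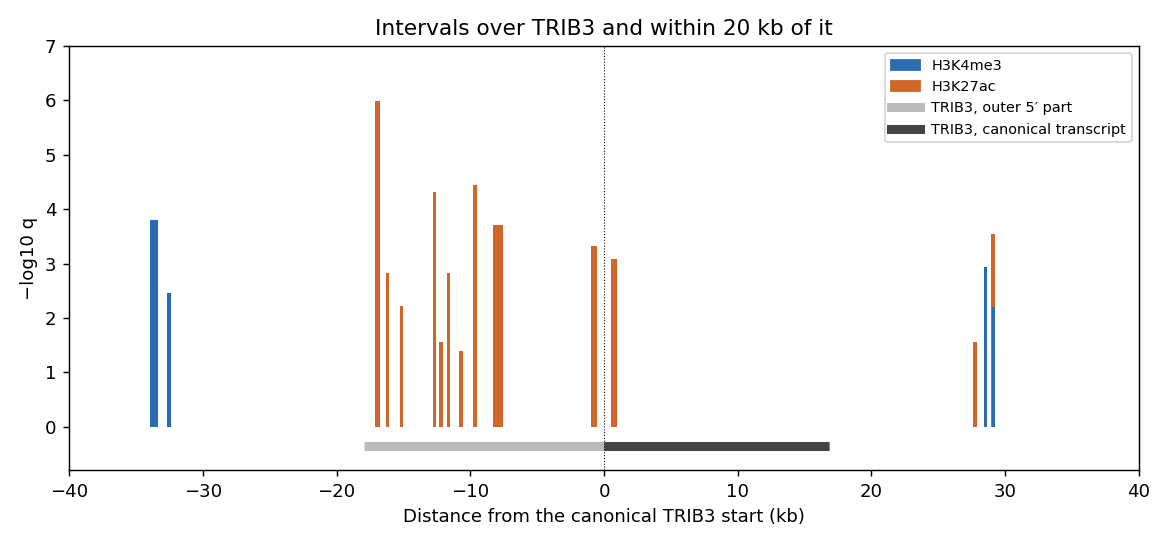
Intervals of H3K27ac (orange) and H3K4me3 (blue) over TRIB3 and within 20 kb of it, placed by distance from the canonical start in kb, with the −log10 q as height. The bar below shows the gene from its outer 5′ end (light) and its canonical transcript (dark). The 11 intervals over the gene are all H3K27ac, and H3K4me3 appears only beyond both ends of the gene.

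All 10 promoters had a CpG ratio above the median of all promoters. In the 300 bases upstream of the canonical start, the ratio of observed to expected CpG ran from 0.776 in TRIB3 to 1.13 in ATF6, with a median of 0.902, against 0.734 (interquartile range 0.385 to 0.889) over all promoters. The G+C content ran from 43.7% in ATF6 to 74.0% in ERN1. XBP1, which had no mark at its start, had a ratio of 1.09 and a G+C content of 63.7%. The ratio is scaled by G+C content, so the high ratio of ATF6 does not mean many CpG sites.

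A wider list of 70 genes of the same pathway was described in the same way. H3K4me3 was found within 1 kb of the outer start of 51 (72.9%, against 38.2% of all protein-coding genes) and H3K27ac at 35 of the 70 (against 23.6%), and 22 (31.4%, against 15.5%) had overlapping marks. The median of the strongest H3K4me3 interval was 4.60, against 3.76 over all marked genes. The list was not tested against other genes.

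The counts of the groups are for outer starts and stand against the same 38.2% of all genes for H3K4me3 and 23.6% for H3K27ac. All 7 genes of translation control had H3K4me3 and 5 had H3K27ac. EIF2S1, the phosphorylated subunit of the initiation factor eIF2, had an H3K4me3 −log10 q of 6.30 without H3K27ac. PPP1R15A, which restores translation by dephosphorylating it, had 6.30 and 3.40 for H3K27ac. Of 13 further sensors, proteases and transcription factors, 7 had H3K4me3 and 4 had H3K27ac. At canonical starts the counts were 9 and 5, against 41.3% and 25.2% of all genes. The ER-anchored factors CREB3L1 (7.56) and CREB3L2 (6.39) had the highest H3K4me3 values at outer starts and no H3K27ac there. ERN2, MBTPS2, CREB3L3, ATF3 and NFE2L2 had neither mark at the outer start. At their canonical starts ATF3 had H3K4me3 (6.12) and NFE2L2 both marks (2.26 and 1.74).

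Of 17 chaperones and folding enzymes, 13 had H3K4me3 (38.2% of all genes) and 7 had H3K27ac (23.6% of all genes). HYOU1, an ER chaperone of the HSP70 family, had 8.93 for H3K4me3 and 5.31 for H3K27ac, and calreticulin (CALR) had 8.36 for H3K4me3 and no H3K27ac. PDIA6, a disulfide isomerase, and the secreted factor MANF had neither, although PDIA6 had H3K4me3 (3.76) at its canonical start. In ER-associated degradation, 12 of 14 genes had H3K4me3 and 9 had H3K27ac. OS9, a lectin that selects misfolded glycoproteins, had 20.7 for H3K4me3 and 7.19 for H3K27ac and lies in the interval-dense region around DDIT3. VCP, the ATPase that extracts them, had 7.67 and 3.40. EDEM1 had neither mark.

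Of 9 genes of translocation and secretion, 6 had H3K4me3 (38.2% of all genes) and 5 had H3K27ac (23.6% of all genes). The retrieval receptors KDELR3 (6.50) and KDELR2 (6.25) had the highest H3K4me3 values of the group at outer starts, with 1.83 and 4.32 for H3K27ac. SSR1, SEC24D and SEC31A had neither mark at the outer start, while SSR1 had H3K4me3 (3.21) and SEC31A H3K27ac (5.98) at the canonical start. Among 10 targets of ATF4 and CHOP, 6 had H3K4me3 and 5 had H3K27ac. PHGDH, of serine synthesis, had 9.76 and 7.33, and DDIT4, an inhibitor of mTORC1, had 5.42 and 3.27. At the canonical start of PHGDH the H3K4me3 value was 3.15 and there was no H3K27ac interval. NUPR1, SLC7A11 and VLDLR had neither mark.

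**Figure D4:**
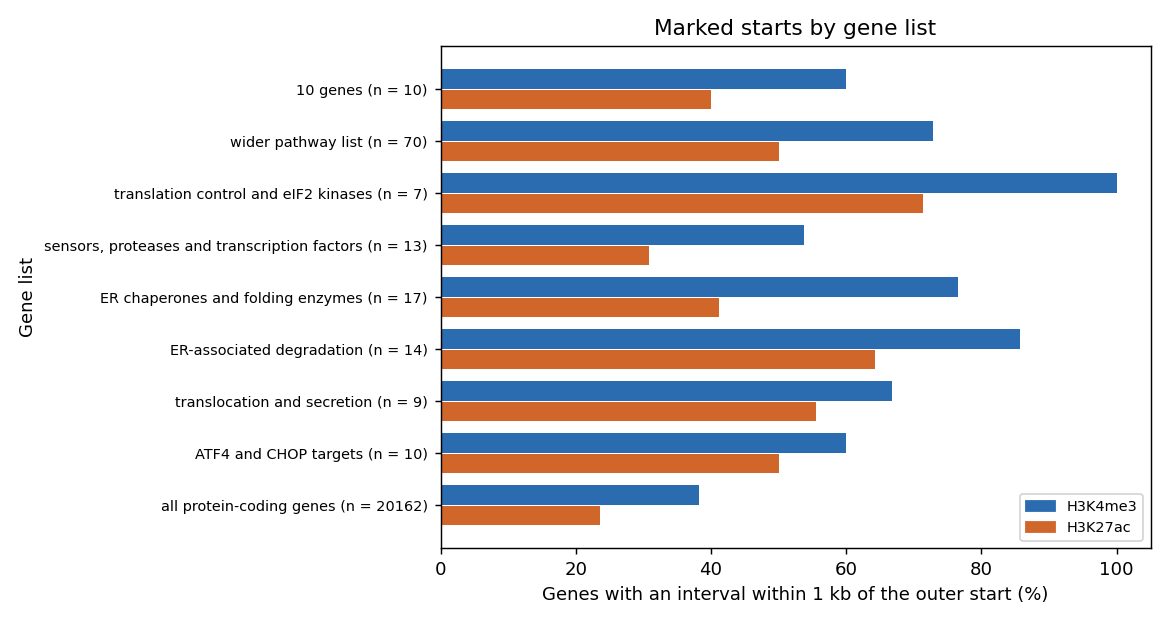
Percentage of genes with an H3K4me3 (blue) or H3K27ac (orange) interval within 1 kb of the outer start, for the 10 genes, the wider list of 70, its groups and all 20162 protein-coding genes. H3K4me3 was found at 6 of the 10 genes, 72.9% of the wider list and 38.2% of all genes, and H3K27ac at 4 of the 10, 35 of the 70 and 23.6% of all genes.

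As a check of the cell line, H3K4me3 was found at the outer starts of 4 of 6 lung and epithelial genes (38.2% of all genes) and H3K27ac at 3 (23.6% of all genes). KRT7, KRT18 and the lung lineage factor NKX2-1 carried both marks and EPCAM carried H3K4me3 at the outer start and both marks at the canonical start, whereas NAPSA and SFTPB had neither.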

How the data were processed

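ChIP-seq libraries for H3K27ac and H3K4me3 from H2087 cells were analysed, 1 per mark, and the input library was not used here. According to the methods and the submitters' processing notes, the authors aligned reads to hg19 with Bowtie 1.1.1 and called peaks with MACS2 2.1.0. Part of the chromatin was kept as input for normalization. Whether the peak caller used it, the threshold and the handling of duplicates are not given in the sources used here. The deposited lists hold intervals and, per summit, a value read from the numbers as the −log10 q of the authors' peak caller. Read counts were not used, so the depth is unknown, and −log10 q grows with depth and copy number.

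Entries with the same interval were joined, keeping the highest value (25275 entries gave 24096 H3K27ac intervals, and 20282 gave 18585 of H3K4me3). Positions are 1-based. Genes came from GENCODE 44 on GRCh37, the same build, and no interval passed a chromosome end. Promoter and interval sequences were read from that assembly. Python 3.11.15 was used, and the interval and motif functions were tested on simulated data. The 10 genes, the wider list, its groups and the naming rule (the 2 highest H3K4me3 values and the unmarked genes of each group) were chosen with earlier results of these data known. The canonical starts and the counts without TRIB3 were added after the files were seen. No test was made.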

Additional observations from a re-analysis of the deposited data

How the results depend on the processing

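No paired analysis was possible because the labels describe a single library per mark. The alternatives gave 58 counts for 8 results, of which 36 were within 1.5 times the reported count and 22 were not. With only intervals at or above the median of their own list there were 10 H3K4me3 and 15 H3K27ac intervals, 14 of the latter without H3K4me3, and overlapping marks at 1 gene. At −log10 q of at least 5, H3K4me3 remained at 2 and H3K27ac at 1 of the 10 starts, overlap at 0, with 4 and 2 intervals, both of the latter (2) without H3K4me3, and the wider list fell to 23 and 8 marked genes. Overlap of 50% of the narrower interval was found at 0 outer starts, although at the canonical start of EIF2AK3 the H3K27ac interval was wholly shared. Over the gene body alone there were 9 H3K4me3 and 19 H3K27ac intervals, and within 50 kb 32 of H3K4me3. Keeping intervals nearest to the gene's own start left 12 and 19, with 13 of H3K27ac lacking H3K4me3. Merging within 1 kb left 14 without H3K4me3. Without TRIB3, chosen after seeing the data, there were 16 H3K27ac intervals, 10 of them without H3K4me3. These changes follow from how each alternative removes, joins or adds intervals. Shares over all protein-coding genes were not computed for the limits on −log10 q or for the 50% overlap. Over all genes marked at the outer start, the strongest interval had a median of 3.76 for H3K4me3 and 3.05 for H3K27ac. Most marked genes therefore also fall below 5, and the lower counts are not read as a result about these genes. The depth of the libraries is unknown, which limits every statement that a mark was not found.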

Other observations

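Across all protein-coding genes, 22 had an ER stress response element in the 300 bases upstream of the canonical start. Of these, 14 had H3K4me3 and 7 had H3K27ac within 1 kb of that start, against 41.3% and 25.2% of all genes. Besides HSPA5 and XBP1 they included 6 genes of the wider pathway list, HSP90B1, CALR, CANX, PDIA6, CRELD2 and ERO1B, which encode ER chaperones and folding factors, and all 6 had H3K4me3 at the canonical start. The list of 22 also held FRG2, FRG2B and FRG2C, which are near-identical copies and not independent. Whether neighbouring genes among the others share an element or an interval was not examined. HYOU1 and SDF2L1 held the second form of the element, and both had H3K4me3. The amino acid response element was found upstream of 7 genes of the wider list, of which 4 had H3K4me3, namely PPP1R15B, ATF3, CHAC1 and SESN2. ASNS, asparagine synthetase, had H3K27ac (1.55) without H3K4me3, and NUPR1 and SLC7A11 had neither mark. These counts describe exact matches of letters within the 300 bases and were not tested.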
